A study of Homo sapiens with 6 samples.

Results

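Transcripts of 10 enzymes that make sugar donors for glycosylation or that add and remove O-GlcNAc were followed in HCT116 cells, an established human colorectal carcinoma line. The members were named by symbol (GFPT1, GNPNAT1, PGM3, UAP1, OGT, MGEA5, GMPPA, GMPPB, UGDH and PMM2), and all 10 were found among the 14987 genes of the deposited table and passed the filter on low values. MGEA5 is the older symbol of OGA. Cells deprived of glucose for 6 h were set against cells in control medium, and in each medium there were 3 libraries: 2 of cells in which YAP was knocked down, with the constructs shYAP1 and shYAP3, and 1 of cells called NC in the sample names and wild type in the genotype label. YAP is a transcriptional coactivator restrained by the Hippo kinases, and the study asked which expression changes of glucose-deprived cells depend on it. Each shYAP line carried 1 construct, NC cells were sequenced once per medium, and the labels name no separate cultures, so that p-values reflect spread among libraries that may be technical. In bulk RNA, fewer cells of a kind and less RNA per cell cannot be told apart.

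Glucose feeds the hexosamine pathway as fructose 6-phosphate. GFPT1 transfers the amide of glutamine to it in the rate-limiting step, GNPNAT1 acetylates the product, PGM3 moves the phosphate, and UAP1 makes UDP-GlcNAc, the donor for N-glycans, glycosaminoglycans and O-GlcNAc. OGT places O-GlcNAc on nuclear and cytosolic proteins and MGEA5 (OGA) removes it. In a parallel branch PMM2 makes mannose 1-phosphate and GMPPB turns it into GDP-mannose, while GMPPA, its paralog, restrains that step. UGDH oxidizes UDP-glucose to UDP-glucuronate, which serves glucuronidation and glycosaminoglycan synthesis.

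The upstream sequences of the members are shown first, because 4 members, GMPPB, GFPT1, PGM3 and UAP1, hold a short letter run found in sites of the unfolded protein response. RefSeq promoter windows (GRCh38.p14, another build than the hg19 of the deposited values) matched all 10 members with 13 windows, and the 250 bases before each gene start were searched on both strands. The run GCCACGT, found in sites of the factor XBP1, lay in windows of GMPPB, GFPT1 and PGM3, 3 of the 13 member windows, and in 2.78% of 35116 windows of all genes. TGACGTG, the core of the unfolded protein response element, lay in a window of UAP1, 1 of the 13, and in 1.68% of all windows. The reticulum stress elements, CCAAT and CCACG with 9 bases between (0.074% of all windows) and ATTGG and CCACG with 1 base between (0.0513%), lay in 0 of the 13, as did TGATGNAA of ATF4 sites (3.14%) and TGACGTCA of CREB sites (1.65%). The reticulum stress elements end in letters that GCCACGT also holds, and TGACGTG can overlap GCCACGT read on the other strand. The windows with a match held 72.8% (GMPPB), 80% (GFPT1), 74% (PGM3) and 77.2% (UAP1) G and C. Member windows without a match held 58.8% (GMPPA) to 80.8% (GNPNAT1). The shares of all windows were not matched for this content, so they are no measure of enrichment. These matches describe letters, not sites in use.

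The exon-free parts of 3 windows are printed 5′ to 3′ on the strand of the gene, for the member with the largest rise, for the member of the rate-limiting step and for the member with the largest fall, with the matched letters in capitals. That of GMPPB is chr3:49723952-49724201 (minus strand), that of GFPT1 is chr2:69387255-69387477 (minus strand), and that of MGEA5 is chr10:101818466-101818694 (minus strand), where no run was matched. The matches of PGM3 at chr6:83193266-83193295 (minus strand) and of UAP1 at chr1:162561537-162561566 (plus strand) are shown with the bases beside them. The UAP1 match, at −174 to −168 from the gene start, lies in an annotated exon of UAP1. Only bases −250 to −217 of that window are free of exons. The PGM3 match, at −9 to −3, lies outside the longest exon-free stretch of its window, −113 to −29.
GMPPB: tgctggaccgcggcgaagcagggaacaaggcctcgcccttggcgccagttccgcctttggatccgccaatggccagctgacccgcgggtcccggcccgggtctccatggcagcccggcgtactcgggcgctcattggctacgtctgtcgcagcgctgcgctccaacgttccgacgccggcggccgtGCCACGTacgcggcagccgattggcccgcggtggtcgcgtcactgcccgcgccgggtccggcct
GFPT1: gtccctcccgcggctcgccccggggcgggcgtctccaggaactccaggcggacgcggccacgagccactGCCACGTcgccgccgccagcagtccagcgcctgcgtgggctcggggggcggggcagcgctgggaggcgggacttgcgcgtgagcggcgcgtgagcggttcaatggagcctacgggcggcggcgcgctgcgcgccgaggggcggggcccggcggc
MGEA5: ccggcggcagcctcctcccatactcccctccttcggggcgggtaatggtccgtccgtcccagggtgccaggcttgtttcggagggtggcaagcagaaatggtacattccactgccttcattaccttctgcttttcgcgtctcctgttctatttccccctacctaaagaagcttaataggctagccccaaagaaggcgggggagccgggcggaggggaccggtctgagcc
PGM3: acgagccggaagccacgcaggGCCACGTct
UAP1: gctcccggcgcTGACGTGtctgggcggtcg

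The libraries held between 16912634 and 22161075 listed reads, and a member had between 348 (PMM2 in deprived shYAP3 cells) and 7046 reads (MGEA5 in shYAP1 cells in control medium). The values are normalized and not divided by gene length. YAP1, the knocked-down gene, stood at 20.3 in shYAP1, 18.2 in shYAP3 and 154 in NC cells deprived of glucose, against 35.7 in shYAP1, 38.2 in shYAP3 and 188 in NC cells in control medium. It was lower in shYAP than in NC cells (log2 −2.63, SE 0.17, limma adjusted p = 0.00082). The epithelial markers EPCAM, KRT8, KRT18, KRT19, KRT20, CDH1, CDX2 and VIL1 were all listed, 8 of 10 on the marker list. The lists of fibroblast, leukocyte and endothelial markers each took at most 0.00342% of the summed value of a deprived library and 0.00234% of that of a control library, and COL1A2, DCN, LUM, PTPRC, CD3E, PECAM1 and CDH5 were not among the listed genes. At these levels CD68 and HLA-DRA rose after deprivation and COL1A1 fell. Each listed gene had a value above 0 in NC cells in control medium, while 535 to 942 listed genes stood at 0 in the other libraries. A gene that is not listed may therefore have been read in other libraries. The epithelial markers together took 0.456% to 0.614% after deprivation and 0.392% to 0.515% in control medium; KRT18, KRT8 and EPCAM rose and CDX2 fell, and their part in the results was not tested. The deprived shYAP3 library stood apart by transcript length: its median deviation from the gene mean was 0.44 in the shortest and −0.29 in the longest of 10 length classes, on the log2 scale, against −0.07 to 0.14 and −0.08 to 0.05 in the other deprived libraries.

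Glucose deprivation split the 10 enzymes. GMPPB, UAP1, UGDH and PGM3 rose, MGEA5 fell to about 0.489 of its control level, and GFPT1, GMPPA, GNPNAT1, OGT and PMM2 did not pass the test. Over all genes 16.5% rose and 15.6% fell, 32.1% in all, by the same rule, limma with Benjamini-Hochberg adjustment at 0.05 over 12263 genes, so 4 of 10 higher and 1 of 10 lower stands beside those shares. The median log2 fold change of the 10 enzymes was 0.37, against 0.05 for all genes tested. All fold changes compare log2(value + 1), deprived minus control, in a model of genotype and medium, which understates the change of low genes.

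**Figure D1:**
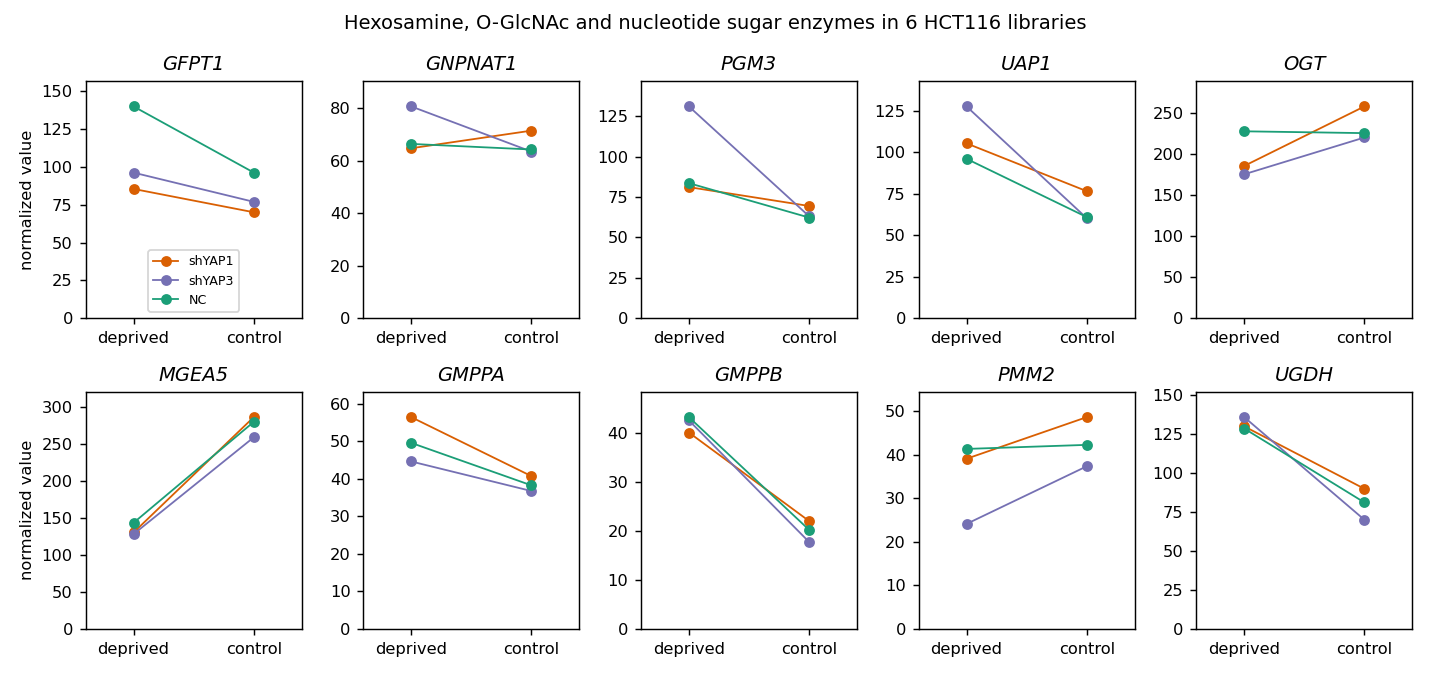
Normalized value (vertical axis, from 0) of each of the 10 enzymes in cells deprived of glucose for 6 h and in control medium, with 1 point per library and a line joining the libraries of shYAP1, shYAP3 and NC cells. GMPPB, UGDH, UAP1, PGM3 and GMPPA were higher in all 3 deprived libraries than in any control library, MGEA5 was lower in all 3, and the other 4 overlapped.

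In the hexosamine pathway the enzymes that passed, PGM3 and UAP1, are the last ones. GFPT1 stood at 85.5 in shYAP1, 96.3 in shYAP3 and 140 in NC cells deprived of glucose, against 70.1 in shYAP1, 77.0 in shYAP3 and 96.3 in NC cells in control medium. Each line was higher after deprivation than in control medium, but the media overlapped, since NC cells in control medium lay above shYAP1 cells after deprivation and level with shYAP3 cells. The difference of GFPT1, 0.38 on the log2 scale, did not pass (SE 0.13, limma adjusted p = 0.056). It passed with length and GC trends removed (0.37, limma adjusted p = 0.013), and without the shYAP1 (adjusted p = 0.032) or the shYAP3 deprived library (0.017).

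GNPNAT1 stood at 64.7 in shYAP1, 80.6 in shYAP3 and 66.4 in NC cells deprived of glucose, against 71.4 in shYAP1, 63.4 in shYAP3 and 64.2 in NC cells in control medium. The media overlapped and shYAP1 cells were lower after deprivation where shYAP3 cells were higher (log2 0.08, SE 0.14, limma adjusted p = 0.67). The sign of this small difference turned with quantile normalization (−0.0084), scaled to listed reads (−0.22) and with length and GC trends removed (−0.13).

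PGM3 stood at 81.2 in shYAP1, 131 in shYAP3 and 83.6 in NC cells deprived of glucose, against 69.5 in shYAP1, 63.2 in shYAP3 and 62.3 in NC cells in control medium. The 3 deprived libraries lay above the 3 control libraries, and deprived shYAP3 cells were far above the other two lines. PGM3 rose 1.48-fold (log2 0.56, SE 0.18, limma adjusted p = 0.045). The call was lost when an NC library or a shYAP control library was left out (limma adjusted p up to 0.18), and when values were scaled to listed reads (0.26, adjusted p = 0.25). Without the deprived shYAP3 library PGM3 passed at 0.34 (limma adjusted p = 0.014).

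UAP1 stood at 105 in shYAP1, 128 in shYAP3 and 96.1 in NC cells deprived of glucose, against 76.6 in shYAP1, 60.3 in shYAP3 and 61.0 in NC cells in control medium. The groups did not overlap. UAP1 rose 1.65-fold (log2 0.72, SE 0.15, limma adjusted p = 0.0088). It passed in all 10 settings that kept every library, but the call was lost without each NC library and without the shYAP3 control library (limma adjusted p up to 0.071). The value of UAP1 over that of GNPNAT1, a ratio free of library scaling, was 1.55 ± 0.0942 after deprivation and 0.992 ± 0.0708 in control medium (SD, n = 3 libraries each).

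Of the enzymes of O-GlcNAc cycling MGEA5 fell and OGT did not pass; whether their changes differ was not tested. MGEA5 stood at 130 in shYAP1, 128 in shYAP3 and 143 in NC cells deprived of glucose, against 286 in shYAP1, 259 in shYAP3 and 279 in NC cells in control medium. All 3 deprived libraries lay far below all 3 control libraries, and the 3 lines were close to each other in each medium. MGEA5 fell by 1.03 on the log2 scale (SE 0.13, limma adjusted p = 0.0013). The fall passed in all 16 alternatives, with log2 fold changes from −1.34 to −0.98 and a highest adjusted p of 0.024.

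OGT stood at 186 in shYAP1, 176 in shYAP3 and 228 in NC cells deprived of glucose, against 259 in shYAP1, 221 in shYAP3 and 226 in NC cells in control medium. Both shYAP lines were lower after deprivation and NC cells were level, so that the media overlapped. On the log2 scale OGT differed by −0.26 (SE 0.15, limma adjusted p = 0.19). It passed as lower after quantile normalization (−0.47, limma adjusted p = 0.033). It also did so scaled to listed reads (−0.57, limma adjusted p = 0.019), a scaling under which the median over all genes was −0.24.

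The ratio of OGT to MGEA5 within a library does not depend on library scaling. It was 1.43 in shYAP1, 1.37 in shYAP3 and 1.59 in NC cells deprived of glucose, against 0.904 in shYAP1, 0.853 in shYAP3 and 0.809 in NC cells in control medium. The groups did not overlap, and the ratio was 1.71-fold higher after deprivation. The 4 ratios between members were chosen after the values were seen and are given without a test, and they show unequal change, not which enzyme changed.

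**Figure D2:**
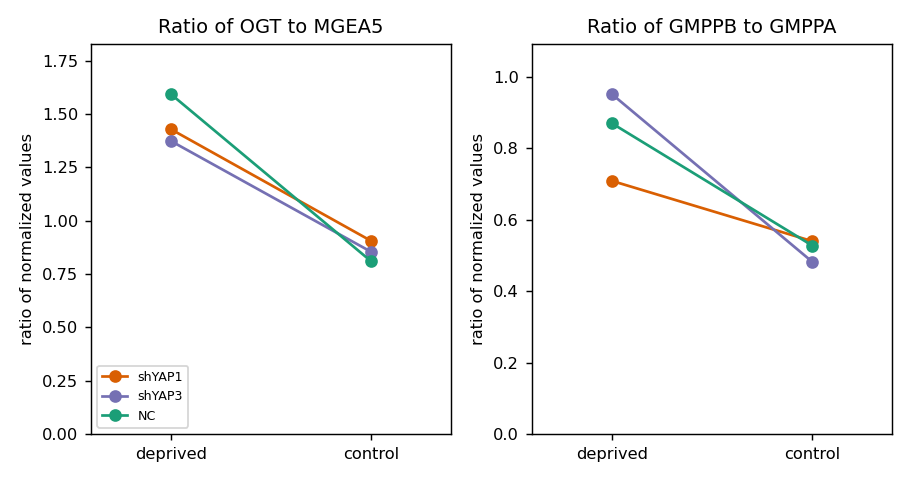
Ratio of the normalized values of OGT to MGEA5 (left) and of GMPPB to GMPPA (right) within each library, in cells deprived of glucose and in control medium, with 1 line each for shYAP1, shYAP3 and NC cells and axes from 0. The OGT to MGEA5 ratio lay between 1.37 and 1.59 after deprivation and between 0.809 and 0.904 in control medium, and the GMPPB to GMPPA ratio between 0.709 and 0.952 after deprivation and between 0.482 and 0.54 in control medium.

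In the GDP-mannose branch GMPPB had the largest estimated rise, and whether the changes of the enzymes differ was not tested. GMPPB stood at 40.02 in shYAP1, 42.5 in shYAP3 and 43.2 in NC cells deprived of glucose, against 21.99 in shYAP1, 17.7 in shYAP3 and 20.2 in NC cells in control medium. The groups were well apart and the lines close together. GMPPB rose 2.05-fold (log2 1.04, SE 0.14, limma adjusted p = 0.0018), the largest rise among the 10 enzymes and close in size to the fall of MGEA5, and passed in all 16 alternatives, with log2 fold changes from 0.74 to 1.42 and a highest adjusted p of 0.031.

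In the GENCODE v29 annotation 2852 exon bases of GMPPB are shared with AMIGO3, a gene on the same strand, and 1166 with RNF123 on the other strand, and how the authors assigned such reads was not given in the sources used here. AMIGO3 stood between 1.57 and 6.39 after deprivation and between 6.57 and 9.54 in control medium, and fell (log2 −1.19, SE 0.26, limma adjusted p = 0.010). RNF123 did not pass (log2 −0.13, SE 0.15, limma adjusted p = 0.53). PGM3 shares 1087 exon bases with DOPEY1 on the other strand, which did not pass (0.25, limma adjusted p = 0.43).

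GMPPA stood at 56.5 in shYAP1, 44.6 in shYAP3 and 49.6 in NC cells deprived of glucose, against 40.7 in shYAP1, 36.8 in shYAP3 and 38.3 in NC cells in control medium. The groups did not overlap, but the difference did not pass (log2 0.37, SE 0.14, limma adjusted p = 0.075). Of the 10 enzymes 5 were higher in every deprived than in every control library and 1 was lower, beside 26.8% and 23.8% of all genes. GMPPA passed with length and GC trends removed (log2 0.64, limma adjusted p = 0.0015) and without the deprived shYAP3 library (0.46, adjusted p = 0.0039). The ratio of GMPPB to GMPPA was 0.844 ± 0.124 after deprivation and 0.517 ± 0.0304 in control medium (SD, n = 3 libraries each), 1.62-fold higher.

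PMM2 stood at 39.1 in shYAP1, 24.1 in shYAP3 and 41.3 in NC cells deprived of glucose, against 48.6 in shYAP1, 37.4 in shYAP3 and 42.3 in NC cells in control medium. Deprived shYAP3 cells were the lowest, and the media overlapped (log2 −0.32, SE 0.20, limma adjusted p = 0.25). Without the deprived shYAP3 library the log2 fold change was −0.08. In the annotation 453 exon bases of PMM2 are shared with TMEM186 on the other strand, which fell (log2 −0.62, SE 0.14, limma adjusted p = 0.012), and the pseudogene PMM2P1 is not among the listed genes. The ratio of GMPPB to PMM2 was 1.02 in shYAP1, 1.76 in shYAP3 and 1.04 in NC cells deprived of glucose, against 0.452 in shYAP1, 0.474 in shYAP3 and 0.478 in NC cells in control medium.

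UGDH stood at 130 in shYAP1, 136 in shYAP3 and 129 in NC cells deprived of glucose, against 89.9 in shYAP1, 70.0 in shYAP3 and 81.1 in NC cells in control medium. The groups did not overlap, and the lines were closer together after deprivation than in control medium. UGDH rose 1.64-fold (log2 0.71, SE 0.14, limma adjusted p = 0.0077). It passed in all 10 settings that kept every library, but not without the NC control library (limma adjusted p = 0.051) or the shYAP3 control library (0.068).

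**Figure D3:**
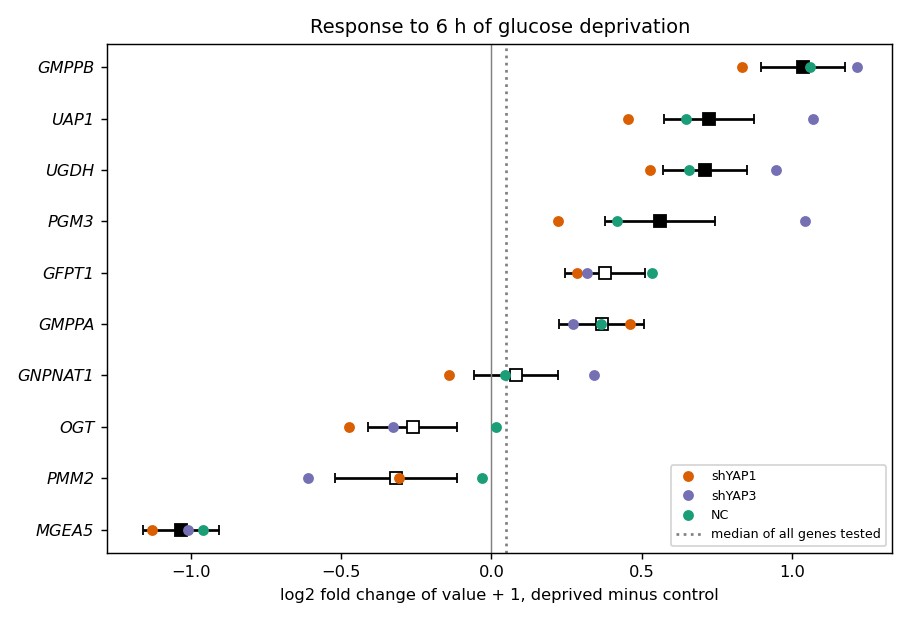
Log2 fold change of value + 1, deprived minus control, for the 10 enzymes. Squares with bars give the limma estimate and its SE over all 6 libraries, filled where the adjusted p was under 0.05, circles give the difference within shYAP1, shYAP3 and NC cells, and the dotted line is the median of all genes tested. GMPPB (1.04) and MGEA5 (−1.03) lie at the ends with all 3 lines on 1 side of 0, and GNPNAT1 and OGT have lines on both sides.

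When an NC library is left out, the other is fitted exactly, so both such fits repeat the estimates of shYAP cells alone. The count of enzymes that rose depended on the libraries. Leaving out NC cells it was 1 (control medium, beside 5.62% of all genes) or 2 (deprived, 5.64%). Leaving out a control library of shYAP cells it was 3 (shYAP1, beside 4.59%) or 1 (shYAP3, 3.86%), and leaving out a deprived one it was 5 (shYAP1, 21.4%) or 6 (shYAP3, 23.4%). The share of all genes that rose was thus also larger where more enzymes passed, except without the shYAP1 control library. MGEA5 was the 1 enzyme that fell in each of these fits. With length and GC trends removed 6 enzymes rose, GFPT1 and GMPPA among them, beside 20.4% of all genes.

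In shYAP cells alone GMPPB rose (log2 1.03, SE 0.19, limma adjusted p = 0.031) and MGEA5 fell (−1.07, SE 0.17, limma adjusted p = 0.024), beside 5.62% of all genes that rose and 5.9% that fell (11.5% in all) in that comparison. UGDH (0.74, adjusted p = 0.0502), UAP1 (0.76, adjusted p = 0.052) and PGM3 (0.63, adjusted p = 0.12) did not pass in limma. With the construct as a replicate block UGDH (limma adjusted p = 0.015), UAP1 (0.011) and PGM3 (0.039) passed, and 3357 genes were called in place of 1412. GMPPB and MGEA5 did not pass without the filter on low values (highest limma adjusted p = 0.11) nor when a shYAP control library was left out (adjusted p up to 0.31).

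In NC cells, with 1 library in each medium and no test, the log2 differences were 1.06 for GMPPB, 0.66 for UGDH, 0.65 for UAP1, 0.54 for GFPT1, 0.42 for PGM3, 0.37 for GMPPA and −0.96 for MGEA5. Of the 10 enzymes 3 were at least 1.5-fold higher and 1 at least 1.5-fold lower, beside 9.57% and 9.86% of all genes (19.4% in all). GNPNAT1 (0.05), OGT (0.01) and PMM2 (−0.03) were almost level in NC cells, OGT at −0.14 after quantile normalization and −0.19 scaled to listed reads. With quantile normalization (beside 9.38% of all genes) or scaled to listed reads (5.5%) GMPPB was the 1 enzyme at least 1.5-fold higher.

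YAP knockdown moved none of the 10 enzymes past the threshold over both media, where limma called 0.00815% of genes, YAP1 itself. On whole reads edgeR called 1 gene and DESeq2 7, with 0 enzymes in either. GFPT1 was the enzyme with the largest difference, lower in both shYAP lines than in NC cells in each medium (log2 −0.50, SE 0.14, shYAP minus NC, 95% interval −0.82 to −0.18, limma adjusted p = 0.58). An unadjusted limma p under 0.05 was reached by 898 of the 12263 genes tested and by 1 of the 10 enzymes, GFPT1. That is near the share of all genes. The 95% interval of GFPT1 is not adjusted for its choice as the largest difference. The difference of GFPT1 kept its sign in every alternative, from −0.62 without the NC control library to −0.39 without the NC deprived library. These alternatives reuse the same libraries and are no separate evidence. The other enzymes had differences from −0.20 (PMM2) to 0.21 (UAP1).

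The response to deprivation was then compared between genotypes. Limma called 0% of genes in the difference of the responses, none of the enzymes among them. Of the 12263 genes tested, 111 had an unadjusted limma p under 0.05, 0 of them enzymes. DESeq2 on whole reads called 1 gene and edgeR 0. The estimates for the enzymes ran from −0.43 (PMM2, SE 0.46) and −0.41 (OGT, SE 0.31, 95% interval −1.14 to 0.31) to 0.21 (PGM3, SE 0.43). For GMPPB the difference was −0.03 (95% interval −0.81 to 0.74) and for MGEA5 −0.11 (−0.80 to 0.58), and with 1 NC library per medium a difference within those bounds could not be told from 0. Without the deprived shYAP1 library PGM3 (0.56, limma adjusted p = 0.019) and PMM2 (−0.77, adjusted p = 0.0016) passed, in a fit where the only deprived shYAP library was that of shYAP3, which stood apart. In that fit 22.3% of all genes were called, so 2 of 10 enzymes is near the background. Without the deprived shYAP3 library the same differences were −0.13 for PGM3 and −0.09 for PMM2.

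Deprived shYAP3 cells lay 0.66 above the mean of the other deprived lines in PGM3, 0.34 in UAP1 and 0.29 in GNPNAT1 and 0.71 below it in PMM2, on the log2 scale. In control medium the 10 shYAP3 deviations were between −0.28 and −0.06. The longest annotated transcripts of UAP1 (2377 bases), UGDH (3216) and GNPNAT1 (3860) are the shortest of the 10, and GMPPB (60.9%) and GMPPA (55.2%) have the highest GC content. By the median length of the basic coding transcripts PMM2 (907 bases) and GMPPA (1534) are the shortest. Length and GC trends were fitted on the longest transcript only. For GMPPB this has 6108 bases, in a gene model that shares 2852 exon bases with AMIGO3. With length and GC trends removed the log2 fold changes were 1.42 for GMPPB, 0.53 for UAP1, 0.48 for UGDH, 0.48 for PGM3 and −0.99 for MGEA5, and all 5 passed in limma (highest adjusted p = 0.024).

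Divided by the length of the longest annotated transcript, MGEA5 was the highest of the 10 enzymes in all 3 control libraries, at 55.5 per kb in shYAP1, 50.2 in shYAP3 and 54.2 in NC cells, with OGT next at 35.7, 30.5 and 31.2 per kb in the same lines. After deprivation MGEA5 stood at 25.2 in shYAP1, 24.8 in shYAP3 and 27.8 per kb in NC cells, close to OGT at 25.7, 24.3 and 31.5 per kb in the same lines. UAP1 (40.4 to 53.7 per kb) and UGDH (39.97 to 42.2 per kb) were then the highest by this length. In control medium the ranges of UAP1 (25.4 to 32.2 per kb) and UGDH (21.8 to 28.0) overlapped. Within each control library UAP1 lay above UGDH, at 32.2 against 28.0 in shYAP1, 25.4 against 21.8 in shYAP3 and 25.7 against 25.2 in NC cells. This order was not tested. GNPNAT1 came after MGEA5, OGT, UAP1 and UGDH, at 16.8 to 20.9 per kb after deprivation and 16.4 to 18.5 in control medium. In deprived shYAP3 cells PGM3 (21.5 per kb) also lay above GNPNAT1 (20.9). In control medium PGM3 (10.2 to 11.4 per kb) lay above GMPPA (7.44 to 8.24) and PMM2 (6.91 to 8.99), which overlapped each other, and GFPT1 (8.05 to 11.1) overlapped all 3. GMPPB was the lowest in 5 of 6 libraries, at 6.55 to 7.06 per kb after deprivation and 2.90 to 3.6 in control medium. Its longest transcript, 6108 bases, was used whole, though 2852 exon bases of GMPPB are shared with AMIGO3. The rank of GMPPB therefore depends on the gene model. With the median length of the basic coding transcripts, an alternative chosen after seeing the data, MGEA5 was again highest in the 3 control libraries and GMPPB lowest in 4 libraries, while PMM2 moved up to the third place in control medium. After deprivation the order depended on the length used: by the basic length UAP1 was highest in shYAP1 cells, PGM3 in shYAP3 cells (59.1 per kb, with UAP1 at 58.6) and OGT in NC cells (52.0 per kb). MGEA5 then stood at 31.1 in shYAP1, 30.6 in shYAP3 and 34.3 per kb in NC cells, below OGT in each line.

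Genes whose 6 values ran closest to those of GMPPB were ADM, which encodes the vasodilator peptide adrenomedullin, AARS and CARS, the alanyl and cysteinyl tRNA synthetases, at a root mean square difference of 0.05, 0.06 and 0.07 between centred log2 values over 6 libraries. Those closest to MGEA5 were SAPCD2, PPM1F, a protein phosphatase, and VKORC1L1, a vitamin K epoxide reductase, each at 0.05. ADM stood at 282 in shYAP1, 273 in shYAP3 and 289 in NC cells deprived of glucose, against 151 in shYAP1, 130 in shYAP3 and 136 in NC cells in control medium. Such a likeness is a description only.

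Among enzymes that also handle amino sugars and sialic acid, 3 of 11 tested rose and 2 fell, with a median log2 fold change of −0.01, beside 16.5% and 15.6% of all genes. Scaled to listed reads 0 rose and 4 fell, with a median of −0.30. Under that scaling 6.11% of all genes rose and 31% fell, with a median of −0.24 over all genes. Without an NC or a shYAP control library, smaller shares of all genes rose and fell than with every library. NANS, sialic acid synthase, rose 1.52-fold (limma adjusted p = 0.014) and CMAS, which makes CMP-sialic acid, 1.45-fold (adjusted p = 0.044). After deprivation CMAS stood at 77.7 in shYAP3, against 51.0 in shYAP1 and 42.2 in NC cells. With length and GC trends removed the log2 fold changes were 0.56 for NANS and 0.24 for CMAS. UAP1L1, the paralog of UAP1, fell to 6.02 ± 1.29 after deprivation, against 12.3 ± 0.981 in control medium (SD, n = 3), a difference of −0.93 on the log2 scale (limma adjusted p = 0.0063), while UAP1 rose. GNPDA1, which converts glucosamine 6-phosphate back to fructose 6-phosphate, fell (log2 −0.61, limma adjusted p = 0.0095). Without either NC library 0 of these genes passed.

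Of 14 other enzymes that activate mannose, fucose, galactose and glucose, 5 rose and 0 fell, with a median of 0.28. PMM1, the paralog of PMM2, rose to 22.2 ± 2.25 after deprivation, against 13.1 ± 1.32 in control medium (SD, n = 3; log2 0.72, limma adjusted p = 0.0095). UGP2, which makes UDP-glucose, the substrate of UGDH, rose 1.72-fold (adjusted p = 0.024), GALK2, which phosphorylates N-acetylgalactosamine, 1.48-fold (0.022) and TSTA3, which makes GDP-fucose, 1.43-fold (0.031). After deprivation UGP2 stood at 150 in shYAP3, against 87.7 in shYAP1 and 67.3 in NC cells. With length and GC trends removed its log2 fold change was 0.58. Scaled to listed reads 0 of the 14 rose, beside 6.11% of all genes. Without the shYAP1 control library 0 rose, without the shYAP3 one 1, and 2 when NC cells of either medium were left out.

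Genes that use or carry the donors were counted in the same way. By that rule 16.5% of all genes rose and 15.6% fell, and 6.11% and 31% scaled to listed reads. Of 11 tested subunits of oligosaccharyltransferase, which transfers the N-glycan precursor, 7 rose and 0 fell, with a median of 0.62. With length and GC trends removed 5 rose and 0 fell, with a median of 0.29, beside 20.4% and 17.4% of all genes. MAGT1 rose to 116 ± 8.73 after deprivation, against 68.1 ± 4.44 in control medium (SD, n = 3, log2 0.76, limma adjusted p = 0.0050). RPN1 (0.73), OSTC (0.88) and TMEM258 (0.86) rose too. With the trends removed the log2 fold changes were 0.60 for MAGT1, 0.68 for RPN1, 0.23 for OSTC and 0.69 for TMEM258. In deprived shYAP3 cells OSTC stood at 200 and TMEM258 at 138, against 118 and 88.6 in shYAP1 and 106 and 69.4 in NC cells. The count was 4 without either NC library and scaled to listed reads, and 1 without either shYAP control library. Of 24 enzymes of dolichol and the lipid-linked oligosaccharide, 3 rose and 1 fell, no larger a share than the 16.5% and 15.6% of all genes, with a median of 0.10. SRD5A3, a polyprenol reductase (0.70), ALG13 (0.60) and ALG5 (0.68) rose, and DOLK, dolichol kinase, fell (−0.74, limma adjusted p = 0.0064). After deprivation ALG5 stood at 54.6 in shYAP3, against 35.9 in shYAP1 and 29.9 in NC cells. With length and GC trends removed ALG5 did not pass (0.19, limma adjusted p = 0.16), and SRD5A3 was at 0.68 and ALG13 at 0.59. At most 1 gene of the list was called in each direction without a single NC or shYAP control library. Scaled to listed reads 0 rose and 3 fell, beside 6.11% and 31% of all genes. With length and GC trends removed 3 rose and 6 fell, beside 20.4% and 17.4%.

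Of 13 genes of the nucleotide sugar transporter family 1 rose and 5 fell, with a median of −0.24. SLC35B1 rose to 117 ± 5.04 after deprivation, against 57.8 ± 1.02 in control medium (SD, n = 3; log2 1.01, limma adjusted p = 0.0013). SLC35B1 is known as an exchanger of ATP across the reticulum membrane more than as a sugar carrier. SLC35B4 (−0.87), SLC35A4 (−0.85) and SLC35C1, the GDP-fucose transporter (−0.73), fell, and these 3 and SLC35B1 passed in limma without each library in turn. Scaled to listed reads 1 rose and 7 fell, beside 6.11% and 31% of all genes. Of 15 tested genes of glycosaminoglycan synthesis 2 rose and 5 fell, with a median of −0.21. Scaled to listed reads 1 of them rose and 7 fell, beside the same shares of all genes. The glucuronidation genes of this list, UGT1A6, UGT1A10 and UGT2B7, were not among the genes tested. XYLT2, a xylosyltransferase that starts glycosaminoglycan chains, fell (−1.07, limma adjusted p = 0.0015), as did CSGALNACT1 (−1.04), while CSGALNACT2 (0.91) and EXT1, a heparan sulfate polymerase (0.83), rose. The count that fell was 2 without either NC or either shYAP control library. YAP knockdown called 0 genes of these 6 lists in limma, and the difference of the responses 0.

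**Figure D4:**
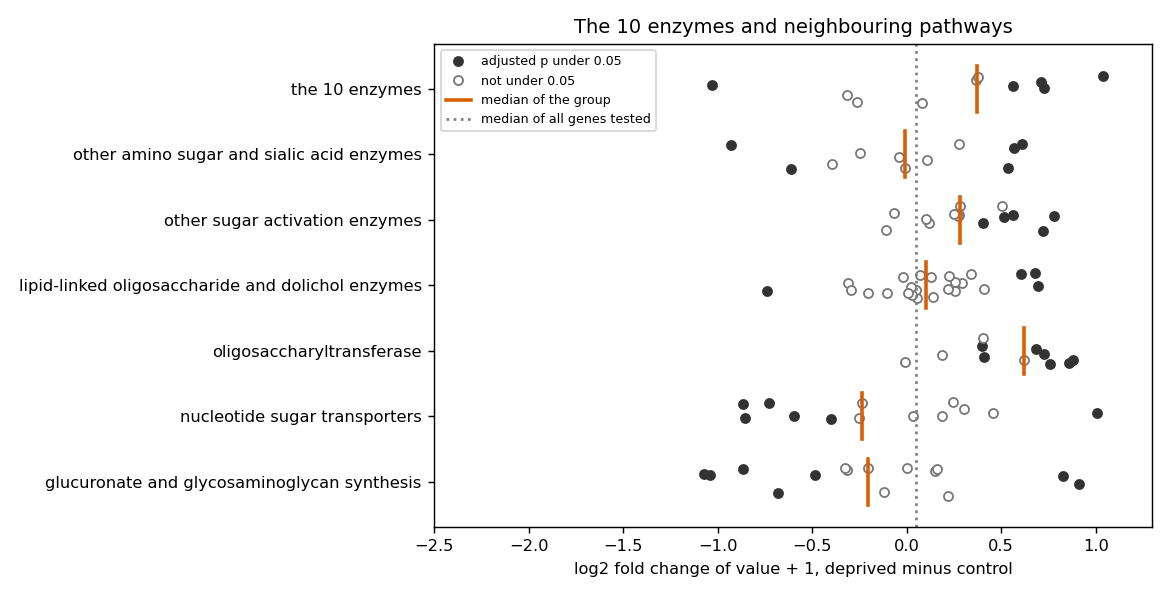
Log2 fold change of value + 1, deprived minus control, for the 10 enzymes and for the tested genes of 6 neighbouring groups (1 circle per gene, filled where the limma adjusted p was under 0.05; vertical position within a group is arbitrary). Orange bars are group medians, from −0.24 for the transporters to 0.62 for oligosaccharyltransferase, and the dotted line is the median of all genes tested, 0.05.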

How the data were processed

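Poly(A) RNA of 6 HCT116 libraries was sequenced on Illumina instruments, per the labels' protocols. Bowtie2, BWA and the build hg19 are named in the submitters' processing notes; the counter, annotation and strand setting are not given in the sources used here. The authors deposited 1 normalized signal per gene and library, with no account of the scaling; 100% of values were whole multiples of 1 read (tolerance 0.01 read), worth 0.0406 to 0.0693, so whole reads were recovered. Printed 95% intervals are limma's, from the spread among libraries.

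Because the signal is normalized, log2(value + 1) was tested with limma (3.58.1 in R 4.3.3, trend on). Genes with at least 1 in at least 2 libraries were tested, 12263 in all. Response and knockdown came from an additive model, the other contrasts from 1 mean per genotype and medium. P-values were adjusted over all genes. The fits were tested on simulated data. As alternatives, edgeR (4.0.16) and DESeq2 (1.42.0) were run on whole reads and called 3848 and 4140 genes in the response, against 3936.

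Members and gene lists were chosen with earlier results of these data known. All members, the 4 genes of each list with the smallest p, and the 3 genes most like GMPPB and MGEA5 are named; other genes named share bases with a member or were checks. The same construct line in both media pairs libraries, per the labels; deviations of a line from the medium means correlated across genes at 0.46 (NC), 0.01 (shYAP1) and 0.33 (shYAP3). Transcript length and GC were taken from the longest GENCODE v29 transcript (GRCh38), found for 98.0% of identifiers.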

Additional observations from a re-analysis of the deposited data

Results flagged for a closer look

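OGT was singled out because its value was almost level in NC cells after deprivation (log2 0.01) and lower in both shYAP lines (−0.47 in shYAP1 and −0.33 in shYAP3 cells). The difference of the responses, shYAP minus NC, was −0.41 (SE 0.31, limma adjusted p = 1.0) and did not pass. It kept its sign in all 12 alternatives, from −0.57 scaled to listed reads to −0.23 with length and GC trends removed. OGT was picked for this direction, and every fit uses the same 1 NC library per medium. The constant sign is therefore no added evidence of a difference. In NC cells OGT was at −0.14 after quantile normalization and −0.19 scaled to listed reads. No other enzyme moved in opposite directions in NC cells and in both shYAP lines, and none passed the test of the difference in limma with all libraries.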

How the results depend on the processing

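GMPPB and MGEA5 kept their calls in the response in all 16 alternatives, and UAP1 and UGDH in the 10 that kept every library. PGM3 did not pass with quantile normalization, scaled to listed reads, without a filter, without a trend or as the mean of both genotypes. Without single libraries the genes called were 1086 to 5306 (response, against 3936), 0 to 5 (knockdown, against 1), 1 to 2735 (difference of responses, against 0) and 234 to 7827 (shYAP cells, against 1412); the enzymes higher and lower were 1 to 6 and 1 to 1 in the response, 0 to 1 and 0 to 1 in the difference, and 0 to 5 and 0 to 3 in shYAP cells. A fit with a lone library in an arm assumes that it varies like the others. The difference could not be fitted without an NC library. In the response, both fits without an NC library repeat the estimates of shYAP cells alone, so they are not separate alternatives.

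In the response 2 enzymes were lower after quantile normalization, beside 17.6% of all genes, and 2 scaled to listed reads, beside 31%. The mean of both genotypes called 1607 genes. Scaling to listed reads called 749 genes higher and 3802 lower, against 2018 and 1918. DESeq2 called 7 genes in the knockdown, 1 in the difference and 2525 in shYAP cells, with 3 enzymes higher beside 10.6% of all genes. Scaled to listed reads 3147 genes were called in shYAP cells, and 2 enzymes were lower, beside 22.6% of all genes. With quantile normalization 2 enzymes were lower in shYAP cells too, beside 7.26%. Without a filter 0 genes and 0 enzymes were called there. With length and GC trends removed 2937 genes were called, and 4 enzymes were higher, beside 13.2% of all genes. The replicate block called 3357 genes in shYAP cells, with 4 enzymes higher beside 14.6% of all genes, and changed no other call on the enzymes. In NC cells 1 enzyme was at least 1.5-fold higher scaled to listed reads (beside 5.5% of all genes) or with quantile normalization (9.38%), against 3.

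GNPNAT1 changed sign in the response with quantile normalization (−0.0084), scaled to listed reads (−0.22), with trends removed (−0.13) and without the deprived shYAP3 library (−0.012; range without single libraries −0.012 to 0.17), and in shYAP cells in the same settings (−0.011, −0.26, −0.11 and −0.056; range −0.056 to 0.26). GFPT1 did so in shYAP cells scaled to listed reads (−0.057), and PGM3 in the difference without the deprived shYAP3 library (−0.13; range −0.13 to 0.56). The cause was not tested. Every member had at least 348 reads in each library; 1 NC library per medium limits the comparison of genotypes.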
